A study of Mus musculus with 8 samples.

Results

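The genes of ER-associated degradation (ERAD) described here are the 10 listed genes Syvn1, Sel1l, Herpud1, Derl1, Derl2, Derl3, Edem1, Edem2, Edem3 and Os9. They are 10 of the 55304 gene symbols in GENCODE release M21 of the mouse genome mm10, and 9 of them belong to the 12261 genes with a transcription start site (TSS) in an H3K27ac region. For each gene, the regions at its TSSs, in its gene body and within 50 kb of its TSSs were collected with their class and width. The regions come from H3K27ac ChIP-seq of mouse primary hepatocytes (MPH), liver parenchymal cells that were isolated from adult male WT mice on a C57Bl6 background (C57BL/6J in the methods) and cultured without serum. MPH received vehicle (0.04% DMSO) or 1 µM thapsigargin, each for 4 h. Thapsigargin blocks the calcium pump of the endoplasmic reticulum (ER) and so induces ER stress (ERS). Each treatment has 3 H3K27ac libraries, 1 from each of 3 independent MPH preparations, and 1 input library, which makes 8 libraries. H3K27 acetylation marks active promoters and enhancers, and both groups came from WT mice and were cultured alike.

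The deposited lists divide 32196 regions into 5508 H3K27ac UP, 3376 H3K27ac DOWN and 23312 unchanged regions, as the authors' test of thapsigargin against vehicle placed them. They give positions only. No region has a signal, a fold change or a value per library, the depth of the libraries is unknown, and no count or width below has an error between preparations. A class says on which side of the authors' threshold a region lay, and an unchanged region is one in which a change was not detected. UP and DOWN follow the names of the lists, and their direction could not be checked from positions. Of the markers for hepatocytes, 8 of 8 had a TSS in a region, of which 3 were at DOWN (Apoa1, Serpina1a and Hnf4a), 1 at UP (Asgr1) and 4 at unchanged. This compares with 0 of 4 for Kupffer cells and leukocytes, 0 of 3 for stellate cells, 1 of 3 for endothelial cells (Stab2, unchanged) and 1 of 3 for cholangiocytes (Sox9, UP). The part of non-hepatocyte cells in any class was not tested.

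ERAD removes proteins that fail to fold in the ER. Mannosidase-like proteins and lectins select misfolded glycoproteins, a membrane complex built around the ubiquitin ligase HRD1 carries them out of the ER and tags them, and the cytosolic proteasome destroys them. In secretory cells such as hepatocytes, which release most plasma proteins, the unfolded protein response induces many ERAD genes through transcription factors that include XBP1 and ATF6.

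H3K27ac was UP at a TSS of 8 of the 10 genes, namely Syvn1, Sel1l, Herpud1, Derl1, Derl2, Edem1, Edem2 and Edem3. No gene had a TSS in a DOWN region. Os9 had its TSSs in an unchanged region alone, Edem1 had further TSSs in unchanged regions, and Derl3 had no region at any TSS. As background, the 12261 genes with a TSS in any region were at UP in 21.4%, at DOWN in 8.91% and at unchanged in 73.7% of cases, and a gene with several TSSs can count in more than 1 class. The share at UP among the ERAD genes with a region was 88.9% (8 of 9). Of 21911 protein-coding gene symbols, 9805 (44.7%) had a TSS in a region, so that Derl3 shared its lack of one with many genes.

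**Figure D1:**
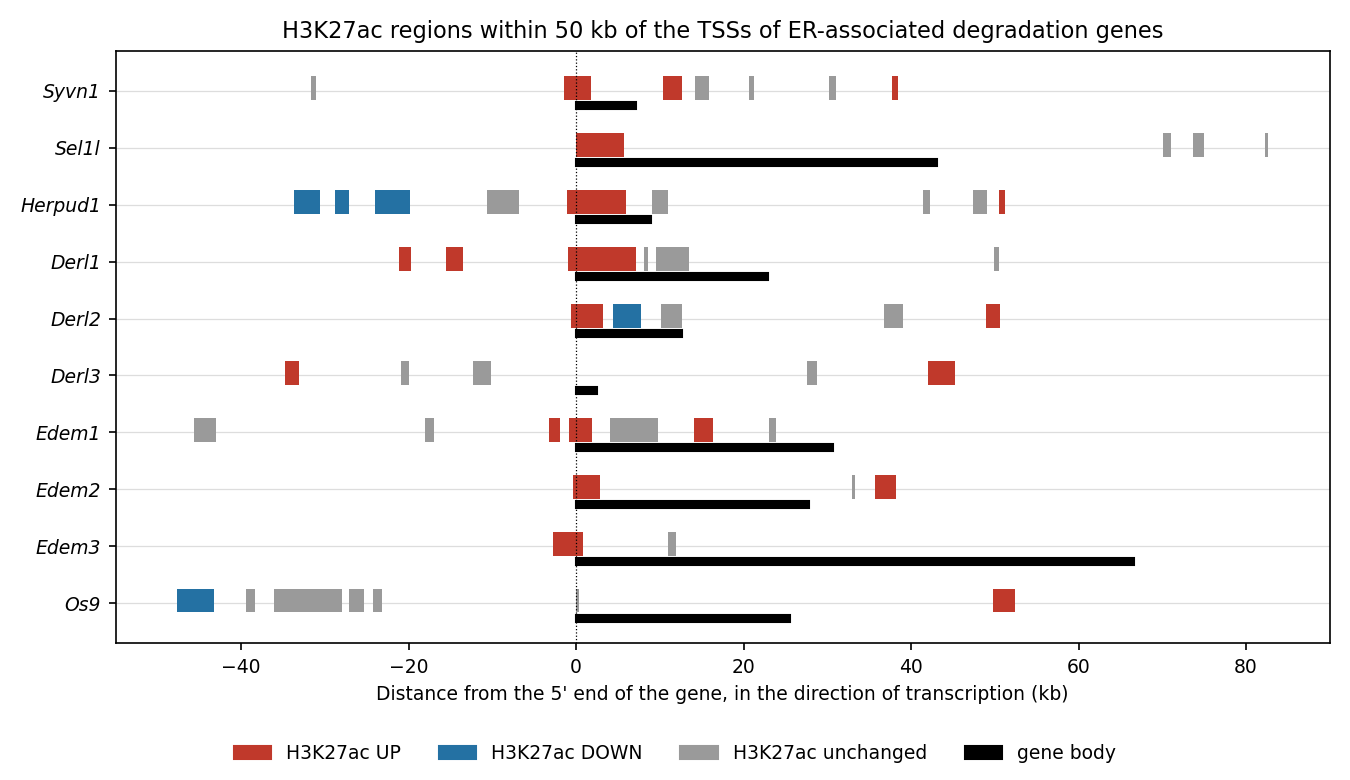
H3K27ac regions within 50 kb of any TSS of each of the 10 genes, drawn to scale against the distance in kb from the gene's 5′ end (dotted line) and oriented so that transcription runs to the right. Coloured boxes are regions of each class and black bars are gene bodies; UP regions cover the 5′ ends of 7 genes and begin 19 bp inside Sel1l, while Derl3 has no region on its body.

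The promoter windows of a few genes are shown for what the class of their regions can be read against. RefSeq (GRCm38.p6, the mm10 assembly) gives a window from 250 bases before to 50 bases after the start for 9 of the 10 genes, with a GC content from 47.3% at Edem2 to 76.0% at Edem1. The windows were searched on both strands for the ER stress response element ERSE (CCAAT, any 9 bases, CCACG), for ERSE-II (ATTGG, any 1 base, CCACG), for the UPRE core TGACGTGG, for the ATF core TGACGTCA and for the C/EBP-ATF element TGATGNAAT. ERSE was present at Syvn1 and Derl3 and ERSE-II at Herpud1, and the other 3 motifs were present in none of the 10 windows of the 9 genes. Below, the motif is in capitals. The Syvn1 window lies on chr19:6046326-6046625 (+ strand), the Herpud1 window on chr8:94386179-94386478 (+ strand) and the Derl3 window on chr10:75893148-75893447 (+ strand). The Os9 window on chr10:127121111-127121410 (− strand), which holds none of the 5 motifs, is given for the gene whose TSS region was unchanged. Its RefSeq start lies just outside that region, and so counts below among starts in no region.
Syvn1: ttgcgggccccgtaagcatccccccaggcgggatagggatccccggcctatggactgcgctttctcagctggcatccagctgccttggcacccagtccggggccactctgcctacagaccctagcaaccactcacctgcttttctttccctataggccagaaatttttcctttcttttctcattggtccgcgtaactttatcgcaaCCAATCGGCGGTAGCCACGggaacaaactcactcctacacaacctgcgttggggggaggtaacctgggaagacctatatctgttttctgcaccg
Herpud1: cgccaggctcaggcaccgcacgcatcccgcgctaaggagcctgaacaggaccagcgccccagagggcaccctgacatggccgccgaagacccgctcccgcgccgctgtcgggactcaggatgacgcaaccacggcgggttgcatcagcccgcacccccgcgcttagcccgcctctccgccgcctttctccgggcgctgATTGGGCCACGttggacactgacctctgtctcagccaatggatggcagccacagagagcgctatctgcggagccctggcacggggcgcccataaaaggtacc
Derl3: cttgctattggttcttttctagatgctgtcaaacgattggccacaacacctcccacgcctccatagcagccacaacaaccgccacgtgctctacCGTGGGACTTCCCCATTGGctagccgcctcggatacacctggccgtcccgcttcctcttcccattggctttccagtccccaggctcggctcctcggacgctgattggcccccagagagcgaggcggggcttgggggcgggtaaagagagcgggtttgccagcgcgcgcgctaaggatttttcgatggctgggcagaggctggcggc
Os9: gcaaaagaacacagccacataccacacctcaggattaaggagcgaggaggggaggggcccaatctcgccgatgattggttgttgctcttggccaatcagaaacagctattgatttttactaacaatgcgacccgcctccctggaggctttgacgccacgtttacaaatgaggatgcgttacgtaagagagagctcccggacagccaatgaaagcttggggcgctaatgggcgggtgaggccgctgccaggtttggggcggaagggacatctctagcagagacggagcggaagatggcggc

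The ERSE of Syvn1 runs from 44 to 26 bases before the RefSeq start, and the ERSE-II of Herpud1 from 52 to 42 bases before it. In Derl3 the ERSE stands on the opposite strand, 156 to 138 bases before the start, and so appears as its reverse complement. These exact letters are rare. ERSE was found in 30 of 21238 protein-coding windows of the same length (0.141%) and ERSE-II in 11 (0.0518%). By class of the region that held the RefSeq start, ERSE was in 13 of 1789 windows at UP (0.727%), 1 of 629 at DOWN (0.159%), 0 of 6291 at unchanged and 16 of 12529 in no region (0.128%). ERSE-II was in 6 windows at UP (0.335%), 0 at DOWN, 2 at unchanged (0.0318%) and 3 in no region (0.0239%). These counts include the windows of the members themselves. For ERSE, Syvn1 is 1 of the 13 at UP and Derl3 1 of the 16 in no region. For ERSE-II, Herpud1 is 1 of the 6 at UP. Over all windows, the UPRE core was in 0.706%, the ATF core in 2.24% and the C/EBP-ATF element in 0.8%. A match describes letters and no binding, and 6 of the 8 genes at UP gave no match or had no window.

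The ChIP-qPCR primers designed for the study fall on 2 of these windows and are shown because their amplicons meet the motifs. Exact matching to mm10 placed the Herpud1 amplicon at chr8:94386287-94386395 (109 bp), where it holds all 11 bases of ERSE-II. The Syvn1 amplicon lies at chr19:6046429-6046549 (121 bp) and holds 18 of the 19 bases of ERSE. They lie 968 bp and 1252 bp inside the left edges of the UP regions of Herpud1 and Syvn1, respectively.
Herpud1 forward: cgggactcaggatgacgcaa
Herpud1 reverse: gtgtccaacgtggcccaatc
Syvn1 forward: cactctgcctacagaccctagc
Syvn1 reverse: gtggctaccgccgattggtt

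The ligase complex was UP at each of its 3 listed genes. Syvn1, which encodes HRD1 itself, lies on chr19:6046576-6053712 (+ strand) and had all 8 annotated transcripts starting in an UP region at chr19:6045177-6048363. That region was 3187 bp wide, reached 1399 bp upstream and 1787 bp downstream of the 5′ end, and covered 25.1% of the gene. Of its bases, 993 were exonic in at least 1 transcript, 795 intronic and 1399 outside the gene. Syvn1 had no other region in its gene body.

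Sel1l, which encodes the adaptor that stabilises HRD1 and passes substrates to it, lies on chr12:91806043-91849157 (− strand). Its UP region at chr12:91843459-91849138 was 5680 bp wide and lay wholly within the gene. It ended 19 bp short of the gene's 5′ end, so that the gene counted through 3 of its 10 transcripts, which start further downstream. Of the 5680 bp, 5500 were intronic and 180 exonic. The class at Sel1l therefore depends on which annotated start is used. By the gene's 5′ end alone, or by its RefSeq start, Sel1l was in no region.

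Herpud1 encodes a membrane protein with a ubiquitin-like domain that helps to assemble the HRD1 complex, and is a widely used marker of ERS. It lies on chr8:94386438-94395377 (+ strand), and 5 of its 6 transcripts started in an UP region at chr8:94385319-94392343. At 7025 bp this region was the second widest among the 10 genes. It reached 1119 bp upstream and 5905 bp downstream of the 5′ end and covered 66.1% of the gene body, the highest share among the 10. A TSS of the gene Gm15890 lay in it as well.

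The derlins, rhomboid-like membrane proteins that take part in moving substrates out of the ER, were split. Derl1 (chr15:57869502-57892448, − strand) had both transcripts starting in the widest UP region at any of the 10 genes, chr15:57885352-57893440, of 8089 bp. It reached 992 bp upstream and 7096 bp downstream of the 5′ end and was mainly intronic (6738 bp). The gene body held 2 further regions, both unchanged, of 465 bp and 4011 bp. Derl1 and Herpud1 are also the members that the study lists as LIVER-ID genes, a list built from broad H3K4me3 domains in liver and not from these libraries.

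Derl2 (chr11:71007164-71019841, − strand) had all 7 transcripts starting in an UP region of 3816 bp at chr11:71016607-71020422. The region also holds a TSS of the neighbouring gene Mis12, which encodes a kinetochore protein, and a region shared by 2 promoters cannot be assigned to either gene alone. Downstream of a gap of 1122 bp, within the Derl2 gene body, followed a DOWN region of 3374 bp at chr11:71012111-71015484, and then an unchanged region of 2535 bp. This was the only place within 50 kb of the 10 genes where an UP region lay next to a DOWN region. The UP region covered 25.5% of the gene body and the DOWN region 26.6%. Of the 2620 genes with a TSS at UP, 229 (8.74%) had a DOWN region in the gene body, against 1 of the 8 here.

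Derl3 (chr10:75893413-75895941, + strand) encodes the derlin known from professional secretory tissues. None of its 8 transcripts started in a region and no region touched its gene body of 2529 bp. The nearest was an unchanged region of 2180 bp that lay 10135 bp upstream. Its ERSE was thus in a window without a called region. A peak below the authors' calling threshold would be missing from the lists. By the methods, so would a peak whose change was significant but mixed in direction along its length. The lack of a called region at Derl3 thus does not show an absence of H3K27ac.

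Edem1, Edem2 and Edem3, which encode mannosidase-like proteins that mark misfolded glycoproteins by trimming their mannose chains, each had a TSS at UP. The UP region of Edem1 (gene at chr6:108828641-108859356, + strand) spanned chr6:108827753-108830496 and was the narrowest at a TSS of the 8 genes, with 2744 bp. It was followed in the gene body by an unchanged region of 5672 bp, an UP region of 2267 bp and an unchanged region of 837 bp, and preceded by an UP region of 1329 bp whose edge lay 1887 bp upstream of the 5′ end. Both unchanged regions hold the TSS of 1 internal transcript each, which puts Edem1 in 2 classes, as for 10.5% of the genes with a TSS at UP. When only protein-coding transcripts were used, Edem1 was at UP alone. Edem1 was the only member with an UP region in its body that held none of its TSSs, which applied to 14.8% of the genes at UP.

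At Edem2 (chr2:155701677-155729475, − strand) 1 of 4 transcripts started in an UP region of 3160 bp at chr2:155726661-155729820, which reached 345 bp upstream and 2814 bp downstream of the 5′ end. All 4 transcripts of Edem3 (chr1:151755371-151822051, + strand) started in an UP region of 3559 bp at chr1:151752643-151756201. This region had the opposite layout, with 2728 bp upstream and 830 bp downstream of the 5′ end, and it also holds a TSS of 2810414N06Rik. The Edem3 gene body of 66681 bp held 1 further region, which was unchanged, intronic and 958 bp wide, and UP regions covered 1.25% of it.

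Os9, the lectin that recognises trimmed mannose chains and hands substrates to SEL1L, was the exception among the genes with a region. The gene lies on chr10:127095650-127121131 (− strand), and 2 of its 3 transcripts started in an unchanged region at chr10:127120772-127121130. The region was 359 bp wide and ended 1 bp short of the gene's 5′ end. It was narrower than nearly all of its kind, since 7491 of the 7667 unchanged regions with a TSS were at least as wide. In a region of this width few bins enter the authors' combined test, and the depth is unknown, so that how large a change at Os9 would have been detected cannot be given.

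The UP regions at the members stood on the broad side of their class. The 8 UP regions ranged from 2744 to 8089 bp with a median of 3687.5 bp, whereas the 2620 genes with a TSS at UP had a median of 2254 bp for their widest UP region. Each of the 8 was wider than the median of 2136 bp over the 2047 UP regions with a TSS, and 4 of them (Derl1, Herpud1, Sel1l and Derl2) were above the upper quartile of 3672.5 bp. Derl1 was at the 94.3 percentile and Edem1 at the 63.1 percentile of that class. The 3 unchanged regions were spread over theirs (median 1530 bp), with those of Edem1 at the 95.2 percentile (5672 bp) and the 19.6 percentile (837 bp) and that of Os9 at the 2.32 percentile. Broad UP regions were not particular to the ERAD genes. At the ER chaperone genes described below, the widest UP region per gene measured 873 bp (Dnajc25) to 6701 bp (Hspa5). No test was made, and the width of a called peak also depends on signal and on depth, which the lists do not hold.

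**Figure D2:**
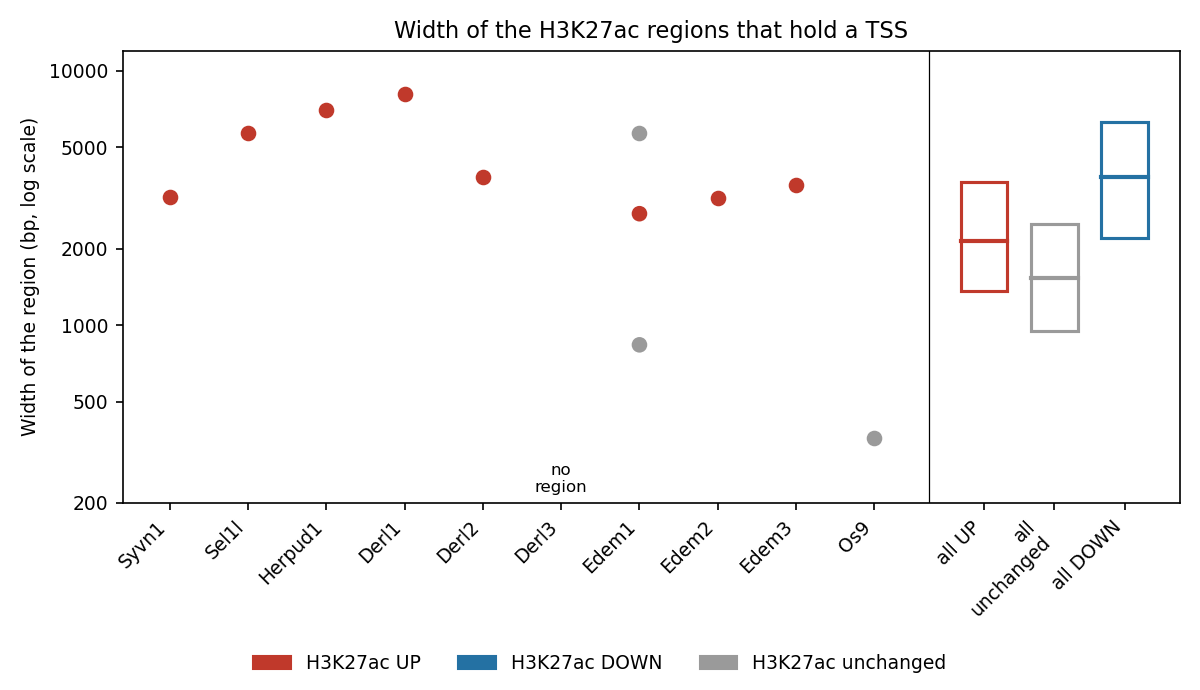
Width in bp, on a log axis, of each H3K27ac region that holds a TSS of the 10 genes (points, coloured by class), beside the quartiles and the median of all regions with a TSS in each class (boxes and thick lines). The 8 UP regions lie between 2744 and 8089 bp, all above the UP median of 2136 bp, and the unchanged region at Os9 is the narrowest with 359 bp.

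The UP regions extended mainly into the genes. For the 7 members whose 5′ end lay in the UP region, the median reach was 992 bp upstream and 2814 bp downstream, and 6 of the 7 had more of the region downstream than upstream, with Edem3 as the exception. A median of 84.06% of the width lay downstream, against 63.6% for the 1766 protein-coding genes whose 5′ end lay in an UP region, of which 69.1% had more downstream. A median of 25.05% of the gene was covered, against 5.658%. This share also depends on gene length, which ran from 7137 bp (Syvn1) to 66681 bp (Edem3) among the 7. Gene lengths were not matched between the 2 sets.

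Counting those at their own promoters, the genes had 55 regions within 50 kb of a TSS, summed over genes, of which 20 were UP, 5 DOWN and 30 unchanged. All 10 genes had at least 1 UP region within this distance, including Derl3 with 2 and Os9 with 1, and 3 genes (Herpud1, Derl2 and Os9) had at least 1 DOWN region. Among the 12261 background genes, the shares with any UP and any DOWN region within 50 kb were 53.0% and 31.9%, respectively. A gene with a TSS in an UP region has one within 50 kb by construction, so that the count of UP was not read against this share. The median numbers of UP, DOWN and unchanged regions per gene were 2, 0 and 3, the same as the medians over the 2620 genes with a TSS at UP.

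**Figure D3:**
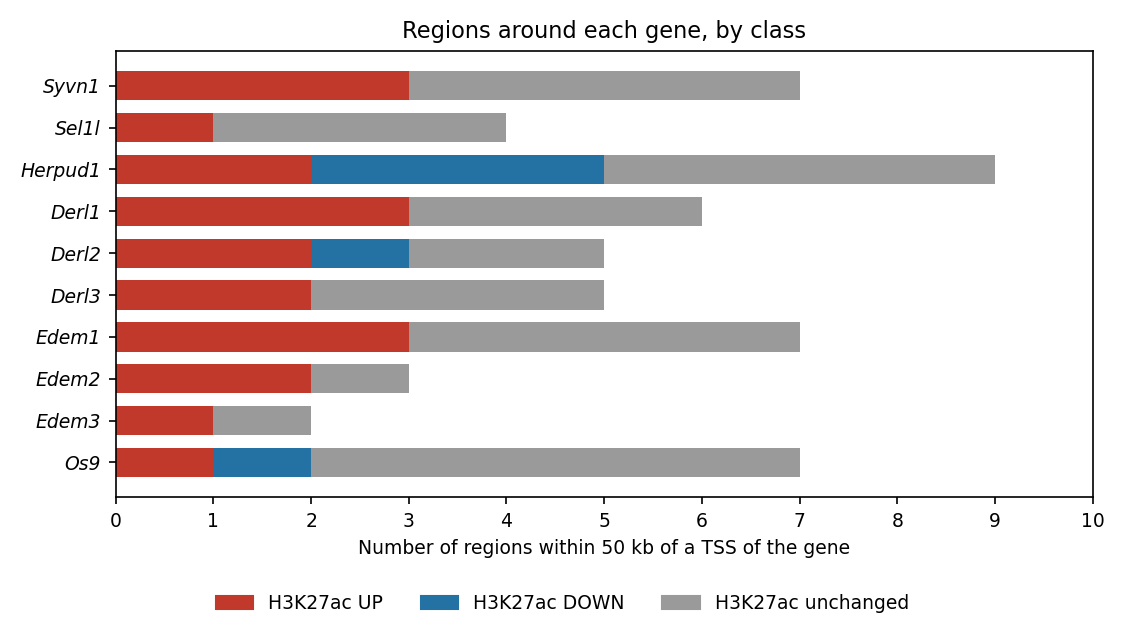
Number of H3K27ac regions within 50 kb of any TSS of each gene, stacked by class. UP regions number from 1 to 3 for every gene, and DOWN regions occur at Herpud1 (3), Derl2 (1) and Os9 (1).

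Apart from the 8 UP regions at their TSSs, the genes had 12 UP regions within 50 kb. They were 687 to 3289 bp wide with a median of 1922 bp. Of the 12, 8 held a TSS of another protein-coding gene and 4 held none. UP regions at other genes' TSSs lay near Syvn1 (Fau and Mrpl49 in 1 region, Cdca5 and Zfpl1 in another), Derl1 (Tbc1d31), Derl2 (Nup88 and Rpain), Derl3 (Mif in 1 region, Chchd10 and Mmp11 in another), Edem2 (Trpc4ap) and Os9 (Tspan31). The 2 UP regions near Derl3 and the 1 near Os9 were all of this kind and lay from 33108 to 49807 bp from the nearest TSS of these genes. UP regions at no TSS lay near Herpud1 (1), Derl1 (1) and Edem1 (2). Linking a region to a gene by distance alone does not show which gene it acts on.

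DOWN regions near the members also lay mostly at other genes. Those near Herpud1, of 3144, 1642 and 4156 bp, all lay in the neighbouring gene Slc12a3, which encodes a sodium and chloride cotransporter, between 19893 and 30558 bp upstream of Herpud1, and the first of them held its TSS. Near Os9 the DOWN region of 4397 bp held the TSS of B4galnt1, a ganglioside synthesis gene, 43274 bp upstream. Only the DOWN region in Derl2 lay within a member's own gene. Across the gene bodies, 9 UP, 1 DOWN and 7 unchanged regions were counted.

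A further 56 ERAD genes, listed by their role in the pathway, stood closer to the background. Of these, 50 started in a region and 6 did not. By class, 17 of the 50 (34.0%) were at UP, 1 (2.0%) at DOWN and 32 at unchanged. The counts by group stand beside the share of 21.4% at UP over all genes. Among lectins, mannosidases and lumenal helpers 6 of 7 were at UP, namely the lectin gene Erlec1 (in a region shared with Asb3), the mannosidase gene Man1b1, the genes of the ER J proteins and their cofactor Dnajc10, Dnajb9 and Sdf2l1, and Txndc11, which encodes a thioredoxin-domain protein that acts with the EDEM proteins. Among membrane scaffolds and proteases 4 of 10 were at UP (Erlin1, Herpud2, the signal peptide peptidase gene H13 and the rhomboid protease gene Rhbdd1) and Jkamp was at DOWN, in a region that also holds a TSS of L3hypdh. Among the genes that extract substrates from the membrane 3 of 9 (33.3%) were at UP, the selenoprotein genes Selenos and Selenok and the VCP cofactor gene Ubxn6.

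Ligases and conjugating enzymes other than HRD1 had 4 of 15 genes (26.7%) at UP, near the share over all genes. They were the ligase gene March6, with 2 UP regions, and the conjugating enzyme genes Ube2j1, Ube2g1 and Ube2g2. None of the 9 genes of shuttling, deglycosylation and deubiquitination with a region was at UP or DOWN. The widest UP region at each of the 17 genes measured 964 to 6349 bp, with a median of 2554 bp. These groups are small, no test was made between them, and the lists were drawn up with results of these data already known.

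The ER chaperone genes include textbook targets of the unfolded protein response. They had a TSS at UP in 10 of 10 cases and at DOWN in 0. Over all genes with a TSS in a region, the shares were 21.4% at UP and 8.91% at DOWN. Of the 31 genes of 26S proteasome subunits, which destroy ERAD substrates along with other proteins in the cytosol, 2 were at UP (6.45%), 1 at DOWN (Psmd13, 3.23%, in a region shared with Sirt3) and 28 at unchanged regions. Some UP regions in both lists also held a TSS of another protein-coding gene.

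**Figure D4:**
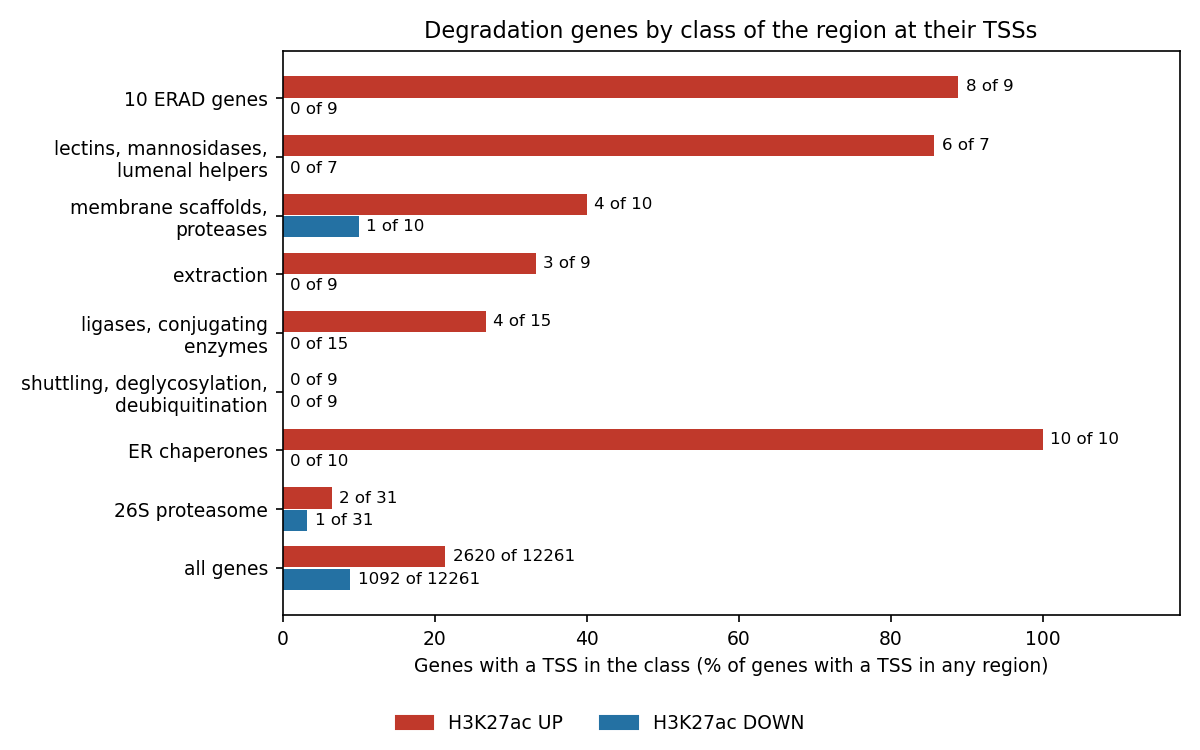
Genes with a TSS in an UP (red) or DOWN (blue) region as a percentage of the genes of each group with a TSS in any region, with the counts beside each bar. The 10 ERAD genes (8 of 9), the lumenal helpers (6 of 7) and the ER chaperones (10 of 10) exceed 80% at UP, against 2 of 31 proteasome genes and 2620 of 12261 genes overall.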

How the data were processed

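Mouse primary hepatocytes were profiled by H3K27ac ChIP-seq (3 libraries and 1 input for each treatment). The deposited values are start and end positions in bp on mm10, in 3 lists named UP, DOWN and unchanged, whose other columns hold only names. Per the labels and methods, the authors used Bowtie and MACS2 (broad peaks on pooled libraries), counted 150 bp bins with csaw 1.6.1 (extension 200 bp), discarded bins at input level, normalized by loess, tested them paired by mouse and combined them per peak. An FDR up to 0.05 was required for UP or DOWN, together with a count of UP over DOWN bins that reached 2 (UP) or did not exceed 0.5 (DOWN). As described, a peak past the FDR with a ratio between 0.5 and 2 falls in none of the 3 lists. Directions are those of the list names, which the study uses for increased (UP) and decreased (DOWN) H3K27ac signal. The authors' code as printed takes thapsigargin as the reference level, so that a positive coefficient, read literally, would mean more signal in vehicle, and positions do not allow the direction to be checked. Loess centring sets the balance of UP against DOWN calls, and it could not be varied here.

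Start positions were shifted to count from 1. TSSs were the starts of 141730 transcripts of GENCODE M21. A gene was counted in every class that held a TSS, and distances run from a TSS to the nearest edge of a region. No test was run. The members and lists were chosen with earlier results of these data known. All 10 members are named, as are further ERAD genes at UP or DOWN, comparison genes at DOWN, and coding neighbours sharing a region at a member's TSS. Other neighbours, Asgr1, Dnajc25, Hspa5 and the cholangiocyte and endothelial markers in a region were named after their values were seen. Of the further genes listed, 1 is not reported here. H13 was matched through an older symbol, Hm13. Counting functions were tested on simulated regions. Python 3.11.15, numpy 2.4.6, pandas 2.3.3 and matplotlib 3.10.9 were used.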

Additional observations from a re-analysis of the deposited data

How the results depend on the processing

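No paired analysis was possible because the lists hold no value per library, and for the same reason no preparation could be left out in turn. Of 74 values recomputed under alternatives, 56 stayed within 1.5 times the reported count or within its interval, and 18 moved. Some of the 56 could not have moved. A setting that only adds starts cannot lower a count, and one that only drops starts or regions keeps a count of 0. By this rule a fall from 8 to 6 also counts as staying. The members with a TSS at UP numbered 8 throughout, except 6 where 500 bp around the TSS in either direction had to lie in the region (without Sel1l and Edem2), 7 with each gene counted once by its widest region (without Edem1, whose widest is unchanged), 7 by the gene's 5′ end alone (without Sel1l) and 6 of the 9 genes with a RefSeq start (without Sel1l, and with no start given for Derl1). The last 2 settings were chosen after the data were seen. Members at unchanged fell from 2 to 1 with protein-coding transcripts, with GENCODE basic transcripts, with the cover of 500 bp and with regions of at least 1 kb, and to 0 by 5′ ends and RefSeq starts. Within 10 kb the members had 11 UP, 1 DOWN and 8 unchanged regions, and within 100 kb 10 DOWN and 50 unchanged. Regions of at least 1 kb left 18 unchanged within 50 kb and 3 in gene bodies. Regions without the gene's TSS numbered 1 UP and 4 unchanged in gene bodies. The background was 4.74% at UP and 1.97% at DOWN over all annotated genes, and 8.31% at DOWN over protein-coding genes. Each move follows from fewer, more or other starts, regions or genes being counted.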
